A study of Danio rerio with 8 samples.

Results

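Retinal cells of zebrafish carrying *xops:eGFP*, a transgene that marks rods with eGFP through a rod opsin promoter of *Xenopus*, were sorted into GFP+ (rod) and GFP- (non-rod) populations, and RNA-seq was carried out on both. The labels of 4 libraries end in _2 and those of the other 4 do not. This split was compared across all 8 of the 8 libraries of the series, with 2 GFP+ and 2 GFP- libraries on each side. GFPpos1 and GFPneg1 (fish 1) and GFPpos2 and GFPneg2 (fish 2) carry no suffix, and GFPpos2_2 and GFPneg2_2 (fish 3) and GFPpos5_2 and GFPneg5_2 (fish 4) carry it. The fish were adults, kept on a light:dark cycle and dark-adapted before dissection. Each library came from the pooled retinas of 1 fish of this line, and its RNA was amplified before sequencing. All 8 share the transgene, the dissociation with trypsin and papain, and the sort. Neither the meaning of the suffix nor the sex or age of each fish is given in the labels, so whatever went with the suffix cannot be told apart from it, nor from the fish themselves, of which there are 2 on each side.

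Rods and cones turn light into a fall of cyclic GMP. Guanylate cyclases remake it under the control of calcium-binding guanylate cyclase activating proteins (GCAPs), cyclic nucleotide-gated channels respond to it, and calcium channels at the ribbon synapse pass the signal on. Photoreceptor identity is set by transcription factors such as the homeobox gene *crx* and the nuclear receptor *nr2e3*, which in mammals promotes rod genes and represses cone genes. Many photoreceptor transcripts, among them those for opsins and for the making of melatonin, are known to follow the circadian clock of the eye. Photoreceptors are rich in mitochondria, whose own small genome encodes subunits of the respiratory chain.

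Counts on genes ranged from 1722055 to 2514874 per library over 33737 gene IDs. Values are given as CPM, the count scaled by the library size and by the trimmed mean of M-values (TMM), always with fish 1 before fish 2 and fish 3 before fish 4. The TMM factors, which multiply the library size, were 1.551 and 1.31 in GFP+ without the suffix and 0.8173 and 0.9974 with it. In GFP- they were 1.278 and 1.316 against 0.5169 and 0.6945. The share of counts on mitochondrial genes was 12.4% and 19.1% in GFP+ without the suffix and 39.3% and 28.9% with it, and in GFP- 25.01% and 26.9% against 66.1% and 58.7%. The label groups did not overlap in either population, but with 2 fish a side the exact permutation test (two-sided) cannot go below p = 0.333, which was the value for both. Between 14115 and 16717 genes had a count in the libraries with the suffix, against 15785 to 18719 without. The share of assigned and unassigned reads that fell on no annotated gene was also lower with the suffix, at 30.7% to 35.0% against 39.5% to 44.2% in GFP+ and 24.3% to 25.1% against 30.3% to 31.9% in GFP-. The part of these library properties in the gene differences was not tested. In multidimensional scaling the first dimension separated the populations and the second placed all 4 libraries with the suffix above all 4 without it, with fish 3 farthest, at 1.40 in GFP+ and 2.38 in GFP-, and fish 4 at 0.0438 and 0.266. In both label groups rod genes summed higher in GFP+ and cone genes higher in GFP-. Within GFP-, however, the rod sum was higher and the cone sum lower with the suffix. The 31 rod genes listed summed to 53005 and 80280.2 CPM without the suffix and 94497 and 90315 CPM with it in GFP+, and to 5870.4 and 7249 CPM without the suffix and 20931 and 18578 CPM with it in GFP-. The cone list summed to 11420.0 and 7261 CPM without the suffix and 8777 and 8790.4 CPM with it in GFP+ and to 62712 and 45839 CPM without the suffix and 39050.1 and 32017 CPM with it in GFP-.

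**Figure D1:**
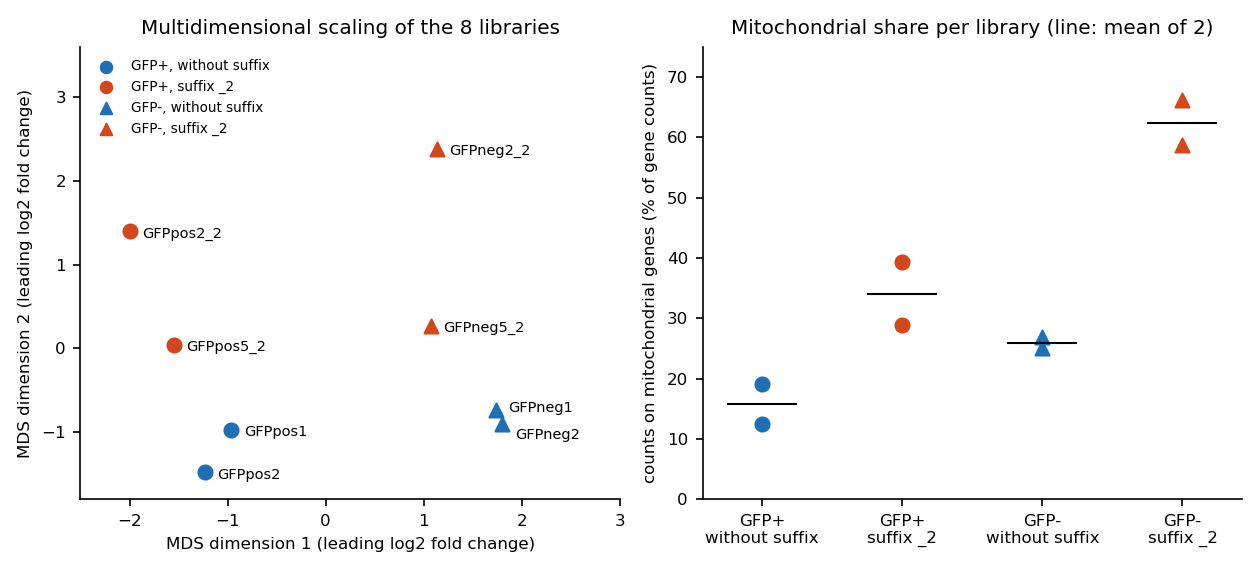
Left, multidimensional scaling of the 8 libraries on the 500 genes with the largest differences, both axes in leading log2 fold change; right, the share of gene counts on mitochondrial genes in percent, with each library as a point and the mean of 2 as a line. Circles are GFP+, triangles GFP-, blue without the suffix and red with it. The libraries with the suffix lie above the others on the second dimension, and their mitochondrial share is 28.9% to 66.1%, against 12.4% to 26.9% without the suffix.

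With the sorted population as a covariate, 351 genes were higher and 172 were lower in the fish with the suffix among 12564 tested (edgeR quasi-likelihood test, Benjamini-Hochberg FDR under 0.05), or 2.79% and 1.37% of them. This fit takes the 2 libraries of a fish as independent, so its p-values are too small. On counts summed per fish, 2 fish against 2, 40 genes were higher (0.298% of 13424) and 16 lower (0.119%), and each of these had been called in the same direction over the 8 libraries. Clock and clock-controlled genes made up 25 of the 523 calls over the libraries and 10 of the 56 on the sums. Without fish 1 the calls over the libraries fell to 146, without fish 2 to 177 and without fish 3 to 262, whereas without fish 4 they rose to 1017. The corresponding calls on the sums were 230, 146, 511 and 1539. When the mitochondrial and the 10 most abundant other genes were left out of the table, 474 genes were called, of which 473 were among the 523 and in the same direction.

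Among the genes called over the libraries, all 523 had log2 fold changes of one sign in GFP+ and GFP-, and for 505 of them the 2 label groups did not overlap in either population. Over all genes tested, 8.26% lay apart with the higher values in the fish with the suffix and 9.67% with the lower. The direction over 8 libraries partly fixes this agreement, since both populations enter that fit. Tested by population, 51 genes were higher (0.406% of the genes tested) and 17 lower (0.135%) in GFP+, and 68 were higher (0.541%) and 16 lower (0.127%) in GFP-. Of the genes called higher, 28 were called in both, which is 54.9% of the GFP+ and 41.2% of the GFP- list, and of those called lower 8 were called in both, 47.1% and 50.0% of the lists. No gene was called in opposite directions. These fits share an estimate of the spread, and with each population fitted alone 1 gene was called in GFP+, 73 in GFP- and 1, a lower gene, in both. Both populations come from the same 4 fish, so that one is not an independent repeat of the other. Of the 36 genes called in both, 9 were clock genes and 9 others were encoded by the mitochondrial genome. Without fish 1 the calls shared by both populations fell to 13, without fish 2 to 16, and without fish 4 they rose to 177. The GFP+ calls fell to 35 without fish 1 and to 30 without fish 2 and rose to 473 without fish 4, and the GFP- calls fell to 22 and 46 without the first and the second fish and rose to 519 without fish 4.

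**Figure D2:**
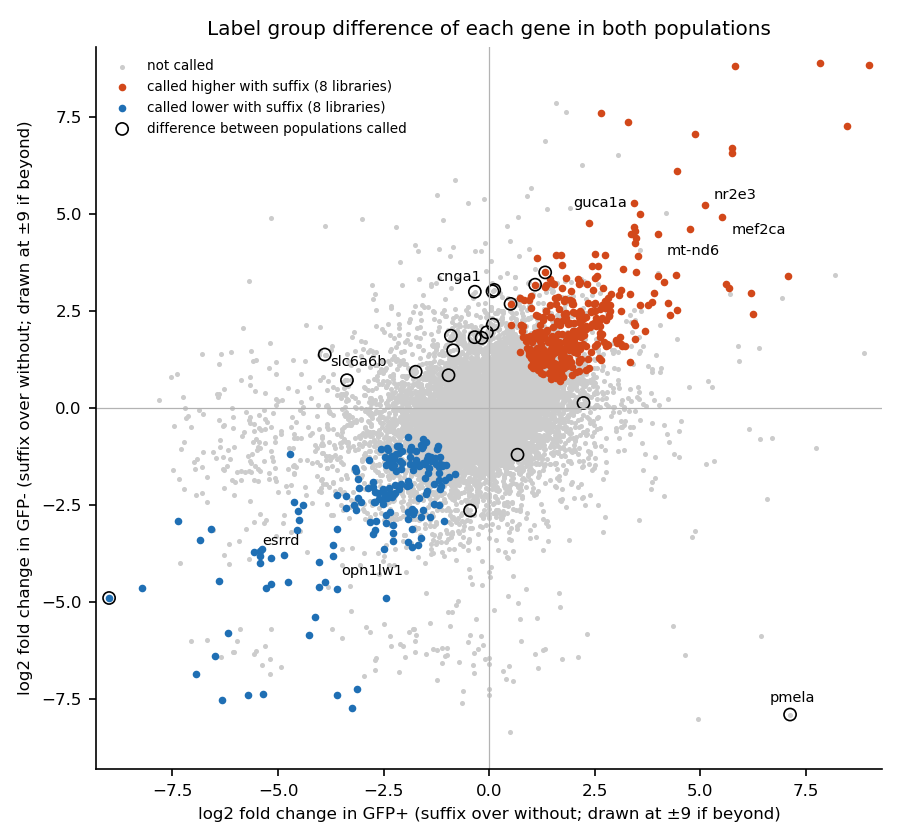
Log2 fold change of each tested gene between the fish with and without the suffix, in GFP+ on the x axis and in GFP- on the y axis, with values beyond 9 drawn at 9. Grey points are genes that were not called, red and blue points the 351 higher and 172 lower genes over 8 libraries, and open circles the 21 genes whose difference itself differed between the populations. Red and blue points lie in the quadrants where both populations moved the same way, and most open circles lie to the left of the diagonal.

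Called in both populations and not part of the clock were 27 genes, of which 23 were higher and 4 lower. Besides the 9 mitochondrially encoded genes, the higher ones with a gene symbol were *nr2e3*, *guca1a*, *pde6g*, *mef2ca*, *SP6*, *dyrk4*, *CHST7*, *CEP170B (1 of 3)*, *ptgs2b*, *pcyt1bb* and *stk35l*, and the lower ones were *opn1lw1* and *guca1e*. *pcyt1bb* was at 37.6 and 50.1 CPM in GFP+ without the suffix and at 448 and 175 CPM in GFP+ with it, whereas the GFP- values were 32.4 and 43.0 CPM against 250.2 and 148 CPM. This gene of phosphatidylcholine synthesis, named like the next one after its values were seen, was apart in both populations (log2 fold change 2.61 ± 0.35 (SE), adjusted p = 6.62e-04, on summed counts 0.0463). *stk35l* was at 69.7 and 57.4 CPM in GFP+ without the suffix and at 258 and 311 CPM in GFP+ with it, whereas the GFP- values were 88.5 and 62.7 CPM against 362 and 219 CPM. *stk35l* encodes a kinase and was apart as well (log2 fold change 2.05 ± 0.29 (SE), adjusted p = 8.39e-04, on summed counts 0.0463). Of the genes described here that were called in both populations, *nr2e3*, *guca1a*, *mef2ca* and *opn1lw1* kept both calls without each fish, whereas *pcyt1bb* and *stk35l* lost theirs in both populations without fish 1 (adjusted p = 0.155 to 0.415) and without fish 2 (0.0642 to 0.467). Without fish 3 *pcyt1bb* again lost both (0.056 in GFP+ and 0.0684 in GFP-) and *stk35l* its GFP- call (adjusted p = 0.203). The calls of *mt-nd6* and *mt-nd2* in both populations were lost without fish 1 (0.0575 to 0.0952). Calls by population without each fish are not given here for *SP6*, *dyrk4*, *CHST7* and *CEP170B (1 of 3)*. Of these, *CHST7* passed in GFP- at an adjusted p of 0.0495. On summed counts 46 genes outside the clock list were called. By chromosome, 17 of the 19 genes tested on the mitochondrial genome were called over the libraries (89.5%), and between 2.37% and 5.56% of the genes on each of the nuclear chromosomes. No list held 431 of the 523 called genes, and 82 of the 523 carry only a clone or locus name.

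Transcription factors were among the named genes of both directions. The 15 named genes of each direction were taken only from genes whose label groups were apart in both populations. That they lie apart, here and below, therefore follows from the choice. *nr2e3* was at 97.1 and 25.04 CPM in GFP+ without the suffix and at 3122 and 1107 CPM in GFP+ with it, whereas the GFP- values were 14.8 and 12.4 CPM against 733 and 290.0 CPM. This nuclear receptor gene (chromosome 25, 22997981 to 23001994, Zv9) was thus higher in both fish with the suffix and in both populations (log2 fold change 5.16 ± 0.51 (SE), adjusted p = 9.25e-05, on summed counts 0.0316). It belongs to the rod list, whose sum in GFP- was also higher in these fish, and the part of that in its GFP- rise was not tested. *mef2ca* was at 2.64 and 1.73 CPM in GFP+ without the suffix and at 170.1 and 37.9 CPM in GFP+ with it, whereas the GFP- values were 17.3 and 15.1 CPM against 760.0 and 227 CPM. This gene encodes a MADS-box factor and was called higher in both populations (log2 fold change 5.15 ± 0.53 (SE), adjusted p = 9.38e-05, on summed counts 0.0316). Its paralogs *mef2cb* (log2 fold change 2.14 ± 0.37, adjusted p = 0.00371) and *mef2aa* (1.36 ± 0.31, adjusted p = 0.0206) were also higher over the 8 libraries, but were not called on the sums (adjusted p = 0.0706 and 0.124), and the further paralogs *mef2d* (0.41 ± 0.27, adjusted p = 0.463) and *MEF2A (2 of 2)* (2.096 ± 0.716, adjusted p = 0.123) were not called over the libraries. The call of *mef2aa* was lost without fish 1 (adjusted p = 0.25), fish 2 (adjusted p = 0.0952) or fish 3 (adjusted p = 0.0891). *SP6*, a zinc finger factor of the Sp family, had no count in either GFP- library without the suffix and 42 and 15 counts in those with it, at least 43.7-fold higher when set against a floor of 3 counts over the group. *SP6* stood at 3.63 and 0 CPM in GFP+ without the suffix and at 134 and 91.0 CPM in GFP+ with it.

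Other factors of the same kind were chosen here after their values had been seen. *neurod* was at 247 and 290.1 CPM in GFP+ without the suffix and at 1729.8 and 1534 CPM in GFP+ with it, whereas the GFP- values were 119 and 293 CPM against 615 and 385 CPM. This proneural basic helix-loop-helix gene rose in GFP+ (log2 fold change 2.60 ± 0.47, adjusted p = 0.0249), whereas in GFP- its difference was 1.28 ± 0.45 (adjusted p = 0.291). *tcf12*, which encodes a partner of such factors, followed with 3.02 ± 0.49 in GFP+ (adjusted p = 0.0162) and 1.67 ± 0.46 in GFP- (adjusted p = 0.15). The call of *neurod* in GFP+ was lost without fish 1 (adjusted p = 0.103) or fish 2 (adjusted p = 0.0562) and that of *tcf12* without fish 1 (adjusted p = 0.0741). The difference between the populations was not past the threshold for either gene (adjusted p = 0.49 and 0.374). The core photoreceptor factors *crx*, *otx5*, *nrl* and *six7* were not called, with log2 differences of -0.00 ± 0.31, 0.42 ± 0.28, 0.65 ± 0.57 and 0.72 ± 0.36 over the libraries. A second ID with the symbol *crx* was at 0.54 ± 1.05, and reads of either may have been counted for the other.

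Outside the clock list, regulators that fell included *esrrd*, an orphan receptor related to the estrogen receptors. *esrrd* was at 348 and 627 CPM in GFP+ without the suffix and at 1.43 and 17.8 CPM in GFP+ with it, whereas the GFP- values were 28.0 and 32.9 CPM against 0 and 3.88 CPM. It was called lower over the libraries (log2 fold change -5.02 ± 0.66 (SE), adjusted p = 5.76e-04, on summed counts 0.0383). By population *esrrd* was called in GFP+ (adjusted p = 0.00984) but not in GFP- (0.0995), and the difference between the populations was not past the threshold (0.836). *rx1* was at 128 and 33.2 CPM in GFP+ without the suffix and at 12.1 and 32.9 CPM in GFP+ with it, whereas the GFP- values were 472 and 276 CPM against 41.7 and 44.0 CPM. This retinal homeobox gene fell over the libraries (log2 fold change -2.48 ± 0.46 (SE), adjusted p = 0.00655, on summed counts 0.0373), and the GFP+ groups were apart by only 33.2 against 32.9 CPM. Its call over the libraries was lost without fish 1 (adjusted p = 0.128) and without fish 3 (adjusted p = 0.0517). *id2b*, an inhibitor of helix-loop-helix factors, fell in GFP+ from 57.4 and 152 to 6.43 and 1.83 CPM (log2 fold change -4.72 ± 0.75, adjusted p = 0.0162), while its GFP- values were 6.30 and 10.5 CPM against 4.17 and 3.24 CPM. Its difference between the populations was not past the threshold (adjusted p = 0.212). The call of *id2b* over the libraries was lost without fish 2 (adjusted p = 0.157). *sall1a*, a zinc finger gene, was lower over the libraries by a log2 fold change of -1.59 ± 0.35 (adjusted p = 0.0184, on summed counts 0.0613). By population it was not called (adjusted p = 0.315 in GFP+ and 0.0798 in GFP-). Its call over the libraries was lost without fish 1 (log2 fold change -1.24) and without fish 3 (-1.30).

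**Figure D3:**
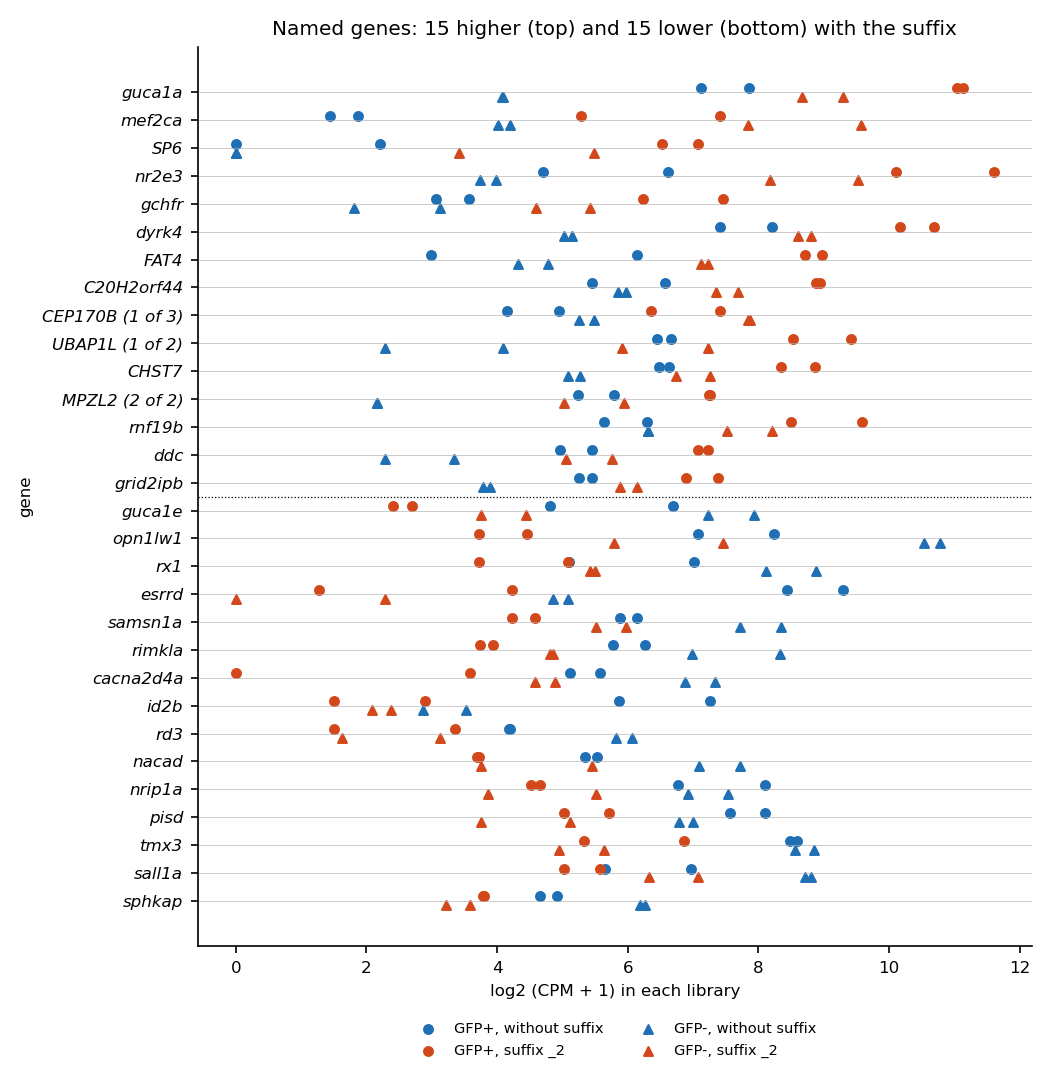
Expression of the 15 named genes that were higher (above the dotted line) and the 15 that were lower (below it) in the fish with the suffix, on the x axis as log2 (CPM + 1), with genes on the y axis and each library as a point. Circles are GFP+, triangles GFP-, blue without the suffix and red with it. Within each population both red points lie to the right of both blue points above the dotted line and to the left below it, with the narrowest gap in GFP+ for *rx1*. The genes were chosen by this separation, which is therefore no further result.

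Genes of the calcium feedback on guanylate cyclase moved in opposite directions. *guca1a* was at 138 and 231 CPM in GFP+ without the suffix and at 2248 and 2111 CPM in GFP+ with it, whereas the GFP- values were 16.1 and 15.9 CPM against 627 and 406 CPM. This GCAP gene (chromosome 4, 21278783 to 21286666) was higher in both populations (log2 fold change 4.26 ± 0.39 (SE), adjusted p = 9.25e-05, on summed counts 0.0253). Like *nr2e3* it belongs to the rod list, and the part of the summed rod level in its GFP- rise was not tested. *guca1e* was at 102 and 27.2 CPM in GFP+ without the suffix and at 4.29 and 5.49 CPM in GFP+ with it, whereas the GFP- values were 244 and 148 CPM against 12.5 and 20.7 CPM. A second GCAP gene (chromosome 22, 2263060 to 2279781) was lower in both (log2 fold change -3.60 ± 0.44 (SE), adjusted p = 3.56e-04, on summed counts 0.0316), but in each population alone its call was lost without fish 1 (adjusted p = 0.272 in GFP+ and 0.101 in GFP-) and without fish 3 (0.0668 and 0.0788). Of the other GCAP genes tested, *guca1b*, *guca1c*, *guca1d* and *guca1g* had log2 differences of 0.89 ± 0.43, -2.11 ± 0.82, 0.10 ± 0.53 and -0.25 ± 1.18, and none was called. The product of *rd3* holds the cyclases inactive on their way to the outer segment. *rd3* was at 17.2 and 17.3 CPM in GFP+ without the suffix and at 9.29 and 1.83 CPM with it. Its GFP- values were 55.4 and 66.2 CPM against 2.09 and 7.77 CPM. By population it was not called (adjusted p = 0.356 in GFP+ and 0.0605 in GFP-). Over the 8 libraries it was called and fell by 2.62 ± 0.59 on the log2 scale (adjusted p = 0.0201). This call was lost without fish 1 (adjusted p = 0.103), without fish 2 (0.0949) and without fish 4 (0.0563). The cyclase genes *gc2*, *gc3* and *gucy2f* were not called over the libraries, at 0.95 ± 0.28, -0.71 ± 0.35 and 0.29 ± 0.43.

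A pair of genes of amine and cofactor synthesis rose as well. *gchfr* was at 10.9 and 7.34 CPM in GFP+ without the suffix and at 176 and 74.1 CPM in GFP+ with it, whereas the GFP- values were 2.52 and 7.74 CPM against 41.7 and 23.3 CPM. It encodes the feedback regulator of GTP cyclohydrolase, the first enzyme of tetrahydrobiopterin synthesis (log2 fold change 3.25 ± 0.47 (SE), adjusted p = 0.00111, on summed counts 0.0316). By population *gchfr* was called in GFP+ (adjusted p = 0.0209) but not in GFP- (0.0939). *ddc* was at 42.6 and 30.2 CPM in GFP+ without the suffix and at 134 and 149 CPM in GFP+ with it, whereas the GFP- values were 9.14 and 3.87 CPM against 53.2 and 32.4 CPM. *ddc* encodes the aromatic amino acid decarboxylase of dopamine and serotonin synthesis (log2 fold change 2.28 ± 0.36 (SE), adjusted p = 0.00203, on summed counts 0.0463). It was called in GFP- (adjusted p = 0.0329) but not in GFP+ (0.0937). For neither *gchfr* nor *ddc* was the difference between the populations past the threshold (adjusted p = 0.95 and 0.944).

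Of 7 cone opsin genes tested, 3 were called lower over the libraries and none higher, against 1.37% and 2.79% of all genes. *opn1lw1* was at 302 and 133 CPM in GFP+ without the suffix and at 12.1 and 21.0 CPM in GFP+ with it, whereas the GFP- values were 1491 and 1765 CPM against 54.2 and 175 CPM. This red opsin gene (chromosome 11, 26411202 to 26413596) fell in both populations (log2 fold change -3.76 ± 0.41 (SE), adjusted p = 1.54e-04, on summed counts 0.0316). *opn1lw2* was at 195 and 171 CPM in GFP+ without the suffix and at 254 and 67.7 CPM in GFP+ with it, whereas the GFP- values were 1455 and 1835 CPM against 1074 and 432 CPM. Its neighbour (chromosome 11, 26414605 to 26416765) was not called (-0.67 ± 0.41, adjusted p = 0.421). Of the green opsins, *opn1mw3* fell by 2.62 ± 0.46 on the log2 scale (adjusted p = 0.00453, on sums 0.0651), a call that was lost without fish 1 (adjusted p = 0.128), and *opn1mw2* and *opn1mw4* were at -0.84 ± 0.35 and -0.77 ± 0.32 and not called. The ultraviolet opsin *opn1sw1* fell by 1.24 ± 0.30 on the same scale (adjusted p = 0.0275, on sums 0.125), and the blue opsin *opn1sw2* was at 0.15 ± 0.31 (adjusted p = 0.84). The call of *opn1sw1* was lost without fish 1 (adjusted p = 0.219), fish 2 (adjusted p = 0.0814) or fish 3 (adjusted p = 0.193). Opsin copies are similar in sequence and reads of one may have been counted for another. In bulk samples fewer cells of a type and less RNA per cell cannot be told apart, which holds for every photoreceptor transcript here.

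Of 34 cone genes tested, 6 were called lower and 2 higher over the libraries, 17.6% and 5.88% against 1.37% and 2.79% of all genes, and their median log2 difference was -0.69, against -0.08 over all genes tested. Besides the 3 opsins and *guca1e*, the lower genes were *pde6h*, which encodes the inhibitory subunit of the cone phosphodiesterase (log2 fold change -1.63 ± 0.42, adjusted p = 0.0377), and *si:busm1-57f23.1* (-5.08 ± 0.70, adjusted p = 6.68e-04), which had no count in GFP+ with the suffix and 67 and 28 counts without it, at least 21.2-fold lower at the floor. The higher genes, *cngb3* and *cnga3b*, both encode subunits of cone cyclic nucleotide-gated channels, whereas *cnga3a* of the same list was not among the calls. *cngb3* was at 26.4 and 13.4 CPM in GFP+ without the suffix and at 236 and 139.9 CPM in GFP+ with it, whereas the GFP- values were 329 and 184 CPM against 1086 and 461 CPM. *cnga3b* was at 27.7 and 2.16 CPM in GFP+ without the suffix and at 105 and 51.2 CPM in GFP+ with it, whereas the GFP- values were 96.4 and 58.5 CPM against 640.1 and 377 CPM. Their log2 fold changes were 2.38 ± 0.43 and 2.54 ± 0.50 (adjusted p = 0.0056 and 0.00989), and neither was called on the sums (adjusted p = 0.147 and 0.0593). The call of *pde6h* was lost without fish 1 (adjusted p = 0.222) or fish 3 (adjusted p = 0.189). Without each fish in turn, 3 to 9 cone genes were called lower and 2 or 3 higher.

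The rod list moved more in GFP- than in GFP+. Of its 31 members, 6 were called higher and 1 lower over the libraries, 19.4% and 3.23% against 2.79% and 1.37% of all genes. The median over the libraries was 0.89, against -0.08 over all genes. By population, 3 of the 31 were called higher in GFP+ and 8 in GFP-, where the shares over all genes were 0.406% and 0.541%. The medians were 0.17 in GFP+ and 1.55 in GFP-, against -0.05 and -0.06 over all genes. The difference was larger in GFP- for 27 of the 31 members (87.1%, against 50.7% of all genes). *pde6g* was at 1614 and 2096 CPM in GFP+ without the suffix and at 9089 and 7454 CPM in GFP+ with it, whereas the GFP- values were 149 and 170.4 CPM against 2052 and 976 CPM. This phosphodiesterase subunit rose in both populations (log2 fold change 2.70 ± 0.37 (SE), adjusted p = 6.68e-04, on summed counts 0.0463), as did *guca1a* and *nr2e3*, but unlike theirs its call in GFP+ was lost without fish 1 (adjusted p = 0.265), fish 2 (adjusted p = 0.14) or fish 3 (adjusted p = 0.0515), and its call in GFP- without fish 1 (adjusted p = 0.0608). *rom1a* was at 968 and 563 CPM in GFP+ without the suffix and at 2170.0 and 2157 CPM in GFP+ with it, whereas the GFP- values were 65.2 and 29.4 CPM against 498 and 393 CPM. *rom1a* encodes a structural protein of outer segment discs and was called in GFP- (log2 fold change 3.23 ± 0.48, adjusted p = 0.00718), with 1.498 ± 0.443 (adjusted p = 0.161) in GFP+. Its difference between the populations was not past the threshold (adjusted p = 0.0652). *rho* was at 10247 and 14797 CPM in GFP+ without the suffix and at 17540.0 and 19611 CPM in GFP+ with it, whereas the GFP- values were 746 and 961 CPM against 3565 and 2829 CPM. Rhodopsin itself was not called over the libraries (adjusted p = 0.0739), in GFP+ (0.59) or in GFP- (0.0634). The remaining called members were *saga*, an arrestin (1.78 ± 0.36, adjusted p = 0.0116), *CNGA1 (2 of 2)*, a channel subunit (adjusted p = 0.015, in GFP- 3.49 ± 0.59 with adjusted p = 0.0154), and, in the other direction, the opsin kinase gene *grk1b* (-1.87 ± 0.43, adjusted p = 0.0218), whose label groups overlapped. The call of *saga* was lost without fish 1 (adjusted p = 0.0759) or fish 2 (adjusted p = 0.1), and that of *grk1b* without fish 1 (adjusted p = 0.325) or fish 4 (adjusted p = 0.0526). The call of *CNGA1 (2 of 2)* was lost without fish 1 (adjusted p = 0.162) and without fish 3 (0.0602), and 4 to 8 rod genes were called higher as each fish was left out.

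**Figure D4:**
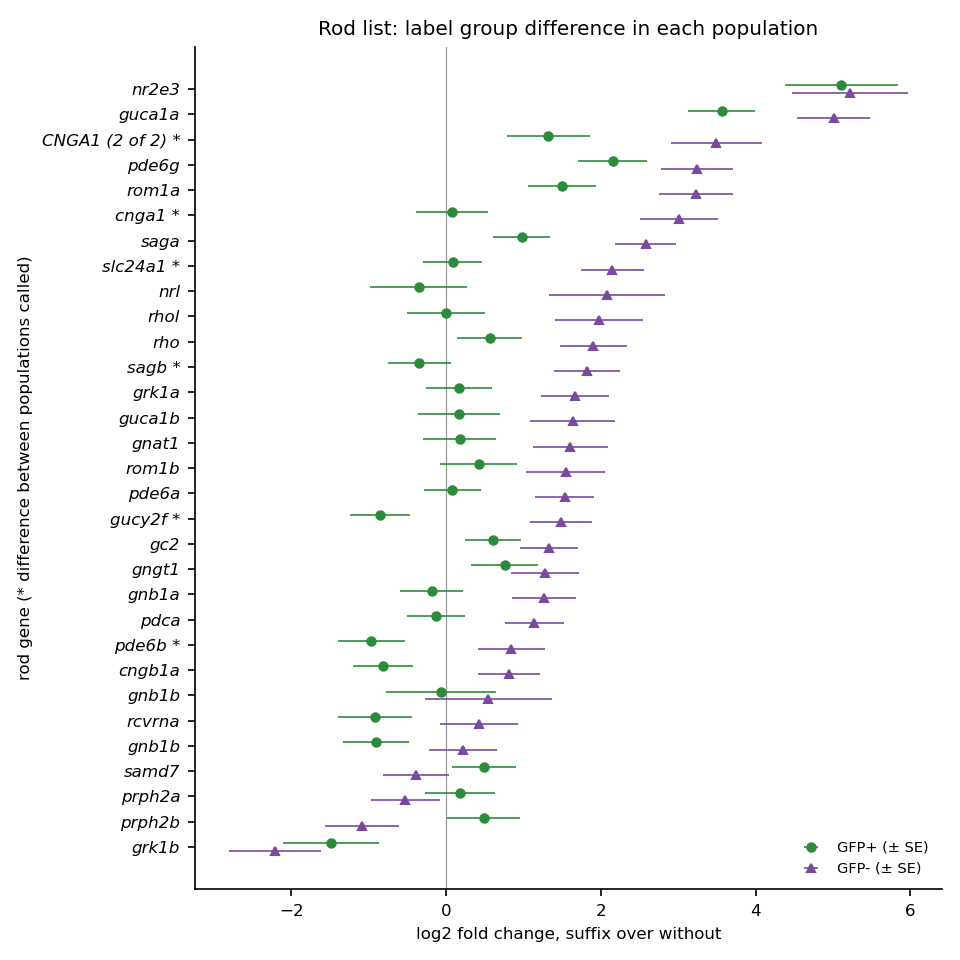
Log2 fold change between the fish with and without the suffix for the 31 rod genes on the y axis, in GFP+ (green circles) and in GFP- (purple triangles), each with its standard error. Asterisks mark the 6 genes whose difference itself differed between the populations. For 27 genes the triangle lies to the right of the circle, whereas for *nr2e3* both lie close together.

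Whether the difference of a gene differed between the populations was tested with the fish as a block. Of 12564 genes, 21 (0.167%) passed, 17 of them with the lower value in GFP+, and 6 of the 21 were rod genes. For 12 of the 21 the log2 fold change had opposite signs in GFP+ and GFP-. The study also looked at sex, which the labels do not give for each fish, so that sex and label group cannot be told apart for these genes. Its interaction of sex with the rod population included *slc6a6b*, *si:ch211-89f7.1* and *pmela*. The paper described *slc6a6b* as enriched in female and depleted in male rods, and *pmela* as found in male rods only. Whether the label groups match the sexes was not tested. *slc6a6b* was at 282 and 652 CPM in GFP+ without the suffix and at 37.9 and 52.1 CPM in GFP+ with it, whereas the GFP- values were 78.1 and 59.6 CPM against 109 and 117 CPM. This taurine transporter gene fell in GFP+ (adjusted p = 0.00984), and the GFP- values were higher with the suffix, though not past the threshold (adjusted p = 0.606, GFP+ minus GFP- -3.99 ± 0.53 with adjusted p = 1.06e-04). *cnga1* was at 698 and 1527 CPM in GFP+ without the suffix and at 1408 and 941 CPM in GFP+ with it, whereas the GFP- values were 36.2 and 65.4 CPM against 502 and 315 CPM. The channel gene differed between the populations by -2.87 ± 0.42 (adjusted p = 3.18e-04) and rose in GFP- (adjusted p = 0.0154, in GFP+ 0.969), a call in GFP- that was lost without fish 1 (adjusted p = 0.107). *si:ch211-89f7.1* differed by -2.72 ± 0.47 (adjusted p = 0.00582), although neither population was past the threshold by itself (adjusted p = 0.325 in GFP+ and 0.0539 in GFP-). *CNGA1 (2 of 2)* differed by -2.24 ± 0.40 (adjusted p = 0.00594).

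The other 4 rod genes that differed in this way were *sagb*, an arrestin, *gucy2f*, *slc24a1*, the rod sodium/potassium/calcium exchanger, and *pde6b*, at -2.14 ± 0.41, -2.31 ± 0.44, -2.02 ± 0.45 and -1.78 ± 0.39. *pmela*, a premelanosome gene chosen after its values were seen, had the largest positive difference. It had no count in GFP+ without the suffix and 11 and 18 with it, but 36 and 42 counts in GFP- without the suffix and none with it. Without fish 2, the differences of *sagb*, *gucy2f*, *slc24a1*, *pde6b* and *pmela* were not called (adjusted p = 0.0894, 0.128, 0.604, 0.0894 and 0.398). Only 5 genes passed an FDR of 0.01. Without the fish as a block no gene passed, and without fish 2 there were 5 calls, without fish 1 37 and without fish 4 176. The summed rod level in GFP- given above, to which these rod genes contribute, was also higher with the suffix, and its part in these differences was not tested.

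All 13 protein-coding genes of the mitochondrial genome were called higher, against 2.79% of all genes. The label groups were fully apart in both populations for each, against 8.26% of all genes apart in this direction. The median log2 difference of the 13 was 2.58 over the libraries, 2.62 in GFP+ and 2.50 in GFP-. Over all genes the medians were -0.08, -0.05 and -0.06. *mt-nd6* was at 116 and 148 CPM in GFP+ without the suffix and at 3399 and 831 CPM in GFP+ with it, whereas the GFP- values were 684 and 565 CPM against 22732 and 5362 CPM. This complex I subunit, encoded on the opposite strand from the other 12, had the largest difference (log2 fold change 4.25 ± 0.52 (SE), adjusted p = 4.13e-04, on summed counts 0.0463). *mt-nd2* was at 1145 and 1764 CPM in GFP+ without the suffix and at 23170.4 and 9227 CPM in GFP+ with it, whereas the GFP- values were 4949 and 4821 CPM against 68936 and 42593 CPM. *mt-cyb* was at 1886 and 2869 CPM in GFP+ without the suffix and at 6369.9 and 5295 CPM in GFP+ with it, whereas the GFP- values were 9016 and 5247 CPM against 18459.6 and 19987 CPM. Another complex I subunit, *mt-nd2*, was at 3.50 ± 0.42 (adjusted p = 3.23e-04), and cytochrome b, *mt-cyb*, had the smallest of the 13 differences at 1.36 ± 0.33 (adjusted p = 0.0282). On summed counts 4 of the 13 were called, *mt-nd2*, *mt-nd6*, *mt-nd4l* and *mt-atp8*, against 0.298% of all genes called higher. The large (*AC024175.4*) and small (*AC024175.17*) ribosomal RNAs of the mitochondrion were higher by 1.60 ± 0.43 and 2.71 ± 0.53 (adjusted p = 0.0477 and 0.00948, on sums 0.287 and 0.124). The call of *mt-cyb* was lost without fish 1 (adjusted p = 0.182), fish 2 (adjusted p = 0.166) or fish 3 (adjusted p = 0.0891), that of the large ribosomal RNA without the same 3 fish (adjusted p = 0.347, 0.121 and 0.164) and that of the small one without fish 1 (adjusted p = 0.131). Between 9 and 13 of the 13 coding genes were called as each fish was left out.

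Nuclear genes of the respiratory chain and ATP synthase were also called in 1 direction only, with smaller medians. Of 95 tested, 11 were called higher and none lower (11.6% against 2.79% of all genes), and the median was 0.35 over the libraries, 0.59 in GFP+ and 0.05 in GFP-. *atp5ia* was at 83.2 and 98.9 CPM in GFP+ without the suffix and at 705 and 353 CPM in GFP+ with it, whereas the GFP- values were 124 and 84.8 CPM against 670.3 and 235 CPM. This subunit of the ATP synthase membrane sector was higher in all 4 libraries with the suffix than in those without (log2 fold change 2.33 ± 0.36 (SE), adjusted p = 0.00189, on summed counts 0.0613). The complex I genes *ndufa11* and *ndufa1* followed at log2 differences of 1.59 ± 0.30 and 1.53 ± 0.33, and *cox6c* of complex IV at 1.25 ± 0.28. None of the 95 was called on the sums. Without fish 1 or without fish 2 only 2 of them were called over the libraries, without fish 3 5, and without fish 4 14 were called higher and 7 lower.

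Of 87 cytosolic ribosomal protein genes tested, 8 were called higher (9.20%) and none lower, against 2.79% and 1.37% of all genes, with a median of 0.30 over the libraries, 0.55 in GFP+ and 0.00 in GFP-. *rps21* was at 60.7 and 41.9 CPM in GFP+ without the suffix and at 378 and 276 CPM in GFP+ with it, whereas the GFP- values were 74.0 and 129.7 CPM against 539 and 220.1 CPM. The groups were apart in both populations for *rps21* (log2 fold change 2.28 ± 0.36 (SE), adjusted p = 0.00189, on summed counts 0.0555). *RPL29*, *rpl36* and *rpl38* stood at log2 differences of 2.04 ± 0.32, 2.23 ± 0.37 and 2.50 ± 0.46. None of the 87 was called on the sums, and 2 to 7 were called higher as each fish was left out, with 3 lower without fish 4.

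**Figure D5:**
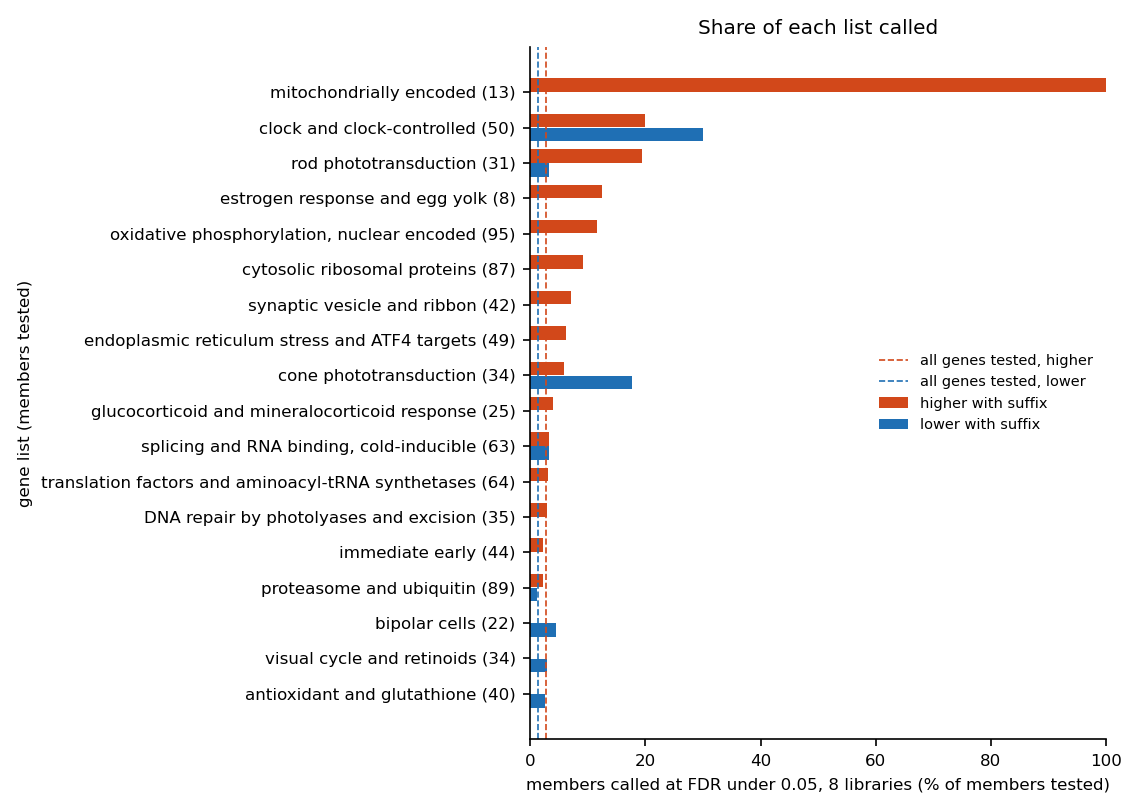
Share of the members of each gene list called higher (red) or lower (blue) in the fish with the suffix at an FDR under 0.05 over 8 libraries, in percent of the members tested, for the lists with at least 1 call. Dashed lines give the same shares over all genes tested, 2.79% higher and 1.37% lower. The red bar of the mitochondrially encoded list takes in all 13 members, and the cone and clock lists have the longest blue bars.

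Clock and clock-controlled genes were called in both directions, 10 higher and 15 lower of 50 tested (20% and 30%, against 2.79% and 1.37% of all genes). *bhlhe41*, a clock repressor, was at 46.6 and 24.6 CPM in GFP+ without the suffix and at 920.3 and 609 CPM in GFP+ with it (log2 fold change 3.92 ± 0.38 (SE), adjusted p = 9.25e-05, on summed counts 0.0316). *dbpb* and *per1a* rose by 3.43 and 2.59 on the log2 scale, and *per1a* was also the 1 call among 25 genes of the glucocorticoid and mineralocorticoid response (4%). *rorcb*, a nuclear receptor of the clock, had 452 and 561 counts in GFP+ without the suffix and none with it, at least 227-fold lower at the floor of 3 counts over the group.

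The remaining named genes that rose included *dyrk4*, a protein kinase. *dyrk4* was at 295 and 170.1 CPM in GFP+ without the suffix and at 1649 and 1149 CPM in GFP+ with it, whereas the GFP- values were 31.5 and 34.5 CPM against 447 and 388 CPM. It was called in both populations (log2 fold change 3.11 ± 0.34 (SE), adjusted p = 1.54e-04, on summed counts 0.0316). *FAT4*, an atypical cadherin (3.13 ± 0.50), *CHST7*, a sulfotransferase (1.98 ± 0.28), *MPZL2 (2 of 2)*, an adhesion protein (2.56 ± 0.42), *rnf19b*, a ubiquitin ligase (2.38 ± 0.39), and *grid2ipb*, a protein that binds delta glutamate receptors (2.03 ± 0.30), were all called over the libraries and on the sums, as were *C20H2orf44* (2.22 ± 0.34), *CEP170B (1 of 3)* (2.46 ± 0.32) and *UBAP1L (1 of 2)* (2.90 ± 0.43). Of these only *MPZL2 (2 of 2)* lost its call over the libraries without a fish, fish 1 (adjusted p = 0.0551). *ptgs2b* was at 3.63 and 5.18 CPM in GFP+ without the suffix and at 57.2 and 97.4 CPM in GFP+ with it, whereas the GFP- values were 18.3 and 20.9 CPM against 53.2 and 319 CPM. This prostaglandin synthase gene, named after its values were seen, was among the genes called in both populations (log2 fold change 3.64 ± 0.49, adjusted p = 6.68e-04). Both of its calls by population were lost without fish 1 (adjusted p = 0.122 in GFP+ and 0.257 in GFP-), and the GFP- call also without fish 2 (adjusted p = 0.0907) and without fish 4 (adjusted p = 0.165, with a log2 fold change of 3.25 falling to 1.47).

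Among the named genes that fell were a calcium channel subunit and an enzyme of neuropeptide synthesis. *cacna2d4a* was at 46.9 and 33.7 CPM in GFP+ without the suffix and at 0 and 11.0 CPM in GFP+ with it, whereas the GFP- values were 117 and 160.3 CPM against 22.9 and 28.5 CPM. By population it was not called (adjusted p = 0.139 in GFP+ and 0.177 in GFP-). This auxiliary subunit of the photoreceptor calcium channel fell over the libraries and on the sums (log2 fold change -2.56 ± 0.51 (SE), adjusted p = 0.0101, on summed counts 0.0446), and its call over the libraries was lost without fish 1 (adjusted p = 0.0591). Related channel genes, looked up after this was seen, were lower too, with *cacna1f* at -2.29 ± 0.47 (adjusted p = 0.0132), *cacna2d4b* at -1.28 ± 0.27 (0.0139) and *cacna1aa* at -2.44 ± 0.43 (0.00466), but *CACNA1F (1 of 2)* was not called at -0.31 ± 0.31 (0.654). The call of *cacna1f* was lost without fish 2 (adjusted p = 0.12), that of *cacna2d4b* without fish 1 (adjusted p = 0.182) or fish 3 (adjusted p = 0.0868) and that of *cacna1aa* without fish 2 (adjusted p = 0.0753), and on the sums none of the 3 was called (adjusted p = 0.0984, 0.161 and 0.0702). *rimkla* was at 53.8 and 76.0 CPM in GFP+ without the suffix and at 14.3 and 12.3 CPM in GFP+ with it, whereas the GFP- values were 126 and 321 CPM against 27.1 and 27.8 CPM. *rimkla* encodes a synthase of the neuropeptide N-acetylaspartylglutamate (log2 fold change -2.66 ± 0.36 (SE), adjusted p = 6.68e-04, on summed counts 0.0446).

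*samsn1a* was at 70.0 and 57.8 CPM in GFP+ without the suffix and at 22.9 and 17.8 CPM in GFP+ with it, whereas the GFP- values were 209.8 and 324 CPM against 44.8 and 62.2 CPM. *samsn1a* encodes an adaptor protein and was the 1 of 22 genes of the bipolar cell list that was called (log2 fold change -1.996 ± 0.309 (SE), adjusted p = 0.00189, on summed counts 0.0418). That is 4.55% of the list, against 1.37% of all genes called lower. *nrip1a*, a corepressor of nuclear receptors, was at -2.73 ± 0.41, *pisd*, the mitochondrial phosphatidylserine decarboxylase, at -2.397 ± 0.342, *tmx3*, a thioredoxin-related protein of the endoplasmic reticulum, at -2.83 ± 0.39, *nacad* at -2.23 ± 0.39 and *sphkap*, an anchoring protein of protein kinase A, at -1.96 ± 0.44. On the sums these 5 were not called (adjusted p = 0.0502, 0.0502, 0.0538, 0.0502 and 0.0651), and *sphkap* also lost its call over the libraries without fish 1 (adjusted p = 0.146) and without fish 2 (0.0701).

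Other function lists held few calls over the libraries, none of them called on the sums. In the list of endoplasmic reticulum stress and ATF4 targets, 3 of 49 were higher (6.12%, against 2.79% of all genes), *sesn2* (1.79 ± 0.38, adjusted p = 0.0156), *cebpg* (1.59 ± 0.35, adjusted p = 0.0189) and *nars* (1.41 ± 0.35, adjusted p = 0.0336), and in that of synaptic vesicles and ribbons 3 of 42 (7.14%), *pcloa* (1.81 ± 0.35), *sv2ba* (1.16 ± 0.26) and *sypb* (1.30 ± 0.30). All 3 stress genes lost their calls without fish 1, without fish 2 and without fish 3 alike, and no synaptic gene was called without fish 2 or without fish 3. Of 64 translation factors and aminoacyl-tRNA synthetases, *eif2s2* and *nars* were higher (3.12%), close to the share of all genes. The proteasome and ubiquitin list had *UBE2QL1* and *psmd6* higher and *psme4b* lower of 89, close to the shares of all genes. In the splicing list *srsf5a* and *srsf5b* were higher and *ptbp1a* and *CIRBP (2 of 2)* lower of 63 (3.17% each way, against 2.79% and 1.37% of all genes). Single higher calls were *SIK1* of 44 immediate early genes (2.27%) and *LIG1* of 35 DNA repair genes (2.86%), close to the 2.79% of all genes. Single lower calls were *gpx4a* of 40 antioxidant genes (2.5%) and *rbp4* of 34 visual cycle genes (2.94%), against 1.37% of all genes. Each of these 4 also lost its call when 1 or more of the fish were left out, as the lists above did.

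The 1 call among 8 genes of estrogen response and egg yolk (12.5%, against 2.79% of all genes higher) was *cyp19a1b*, the brain aromatase. It had 0 and 2 counts in GFP+ without the suffix and 61 and 11 with it, and 0 and 2 counts in GFP- against 64 and 30 (adjusted p = 0.00184, on sums 0.0608). Its call was lost without fish 3 (adjusted p = 0.0628). The other 7 genes of that list were not called. Of 33 microglia and leukocyte genes, 20 genes of Müller glia, 21 of amacrine, horizontal and ganglion cells, 7 of pigment cells, 10 of erythrocytes and 9 of endothelium, none was called over the libraries. The same held for the lists of heat shock (48), glycolysis (39), hypoxia (22), cholesterol and fatty acid synthesis (39), the cell cycle (30), non-visual opsins (9), interferon (39) and lens and cornea (4). Median log2 differences were -1.51 for non-visual opsins, -0.94 for interferon and -0.45 for microglia, against -0.08 over all genes tested. The other lists without a call lay between -0.27 and 0.34, and the bipolar list with its 1 call was at -0.65. Over all genes, 2242 had an unadjusted p under 0.05 in this edgeR fit. The summed level of the microglia list in GFP- was 2351 and 5652 CPM without the suffix and 2928 and 3598 CPM with it.

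Some genes were seen on one side only. Of the genes tested, 3 had no count in any of the 4 libraries without the suffix. Such genes passed the filter on low counts only through the group in which they were seen, so a difference was fixed by the way they were chosen and whether they were called says little more. *BX324132.5* had 74 and 30 counts in GFP+ and 31 and 33 in GFP- with the suffix, at least 102-fold higher at a floor of 3 counts over the 4 libraries. The other two had their counts mainly or only in fish 3. *cfap70* had 58 and 15 counts in GFP+ and GFP- of fish 3 and 0 and 4 in fish 4, and *ppt2a.5* had 38 and 54 counts in fish 3 and none in fish 4. In the opposite direction, 28 genes had no count in any library with the suffix. Among the 5 of them past the threshold were *C22H19orf26 (2 of 2)*, with 18, 19, 19 and 19 counts in the libraries without the suffix (at least 13.7-fold lower with it), *trim55a* (26, 1, 35 and 26 counts, at least 16.1-fold) and *ARHGAP6* (8, 18, 16 and 12 counts, at least 9.87-fold). The other 2 have no symbol.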

How the data were processed

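RNA-seq libraries of GFP+ and GFP- cells of 4 fish were used. The authors used Sickle for trimming, FLASH to join read pairs and BWA for alignment to Zv9, and deposited whole-number counts per Ensembl gene from HTSeq-count; tool versions and the strand setting are not given in the sources used here, so that overlapping and antisense genes, like near-identical copies, are uncertain. Lines of HTSeq that name no gene (34.4% to 55.3% of all lines' counts) were left out of library sizes and tests. The authors also deposited a table with a normalized signal per library, that is, counts divided by a size factor, together with their own fold changes and p-values between GFP+ and GFP-, of which the latter were not used. Reads recovered from that signal were whole and equal to the counts for 100.0% of values (tolerance 0.01), and a count test on them called 521 genes. Coordinates are those of Zv9 in that table. Of 33737 IDs, 13325 took a symbol from it and 10867 from a table of gene names.

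Counts ranged from 1722055 to 2514874 per library. They were scaled with TMM, filtered with filterByExpr and tested with the quasi-likelihood F test of edgeR 4.0.16 in R 4.3.3, with Benjamini-Hochberg adjustment over all genes tested (FDR under 0.05). The libraries with and without the suffix were compared with the sorted population as a covariate, on counts summed per fish, and within each population with a shared estimate of the spread. The difference between populations was fitted with the fish as a block. The labels and the design text tie 1 GFP+ and 1 GFP- library to each fish, and the pairing rests on them. Deviations of the libraries of a fish from the population means correlated at 0.214 to 0.333, but these hold the label group difference too. From the mean of each sort and label group they correlated at 0.153 for fish 1 and 2 and at 0.200 for fish 3 and 4. Libraries of unlike fish were not compared. The fits were also run on simulated data in which each library was drawn independently. No effect shared by the libraries of a fish was simulated. These runs could therefore not show how far the p-values over the 8 libraries are too small. DESeq2 1.42.0, limma 3.58.1, other scalings and filters, and the omission of each fish were alternatives. Downsampling of the total count of each library to 1722055 and the recovered reads were chosen after the data had been seen.

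Named genes were called over the 8 libraries and on the sums in the same direction, with label groups apart in both populations, outside the clock list and with a symbol that is not a clone or locus name, taking the 15 with the smallest p on the sums in each direction. Fewer than 10 lower genes met this, so for them the sums had to pass an unadjusted p of 0.01. Up to 4 called genes of each function list and the 5 genes with the smallest p for the difference between populations were added. Of these 5, 1 is not reported here. The comparison, the lists and their members were chosen with earlier results of these data known. Lists are described by counts and medians, without a test. Where a group had no count, folds were bounded with a floor of 3 counts over the group, which covers counting error only.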

Additional observations from a re-analysis of the deposited data

Results flagged for a closer look

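In the edgeR test with the fish as a block, 4 genes among those with the smallest p-values had a label group difference that was unlike in GFP+ and GFP-. The difference in GFP+ minus that in GFP- was -3.99 for *slc6a6b*, -2.87 for *cnga1*, -2.72 for *si:ch211-89f7.1* and -2.24 for *CNGA1 (2 of 2)*, all on the log2 scale. Without the block none of the 4 was called, and each kept its sign. The labels do not give the sex of the fish, so for these genes a difference by sex and one by label group cannot be told apart. The paper lists *slc6a6b* and *si:ch211-89f7.1* in its interaction of sex with the rod population.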

How the results depend on the processing

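No named gene reversed under any alternative run. Of the 71 named genes called over the libraries, 38 kept their call under every alternative that included them. The named mitochondrial genes were left out of the run without mitochondrial genes, so that run could not test their calls. Counts of calls moved with several settings, and the cause was not tested. With no filter on low counts, 842 genes were called over the libraries, 732 on sums, 385 in GFP+, 326 in GFP-, 158 in both populations and 40 for the difference between populations. DESeq2 called 929, 556, 375, 363, 153 and 81 genes in the same order. At an FDR of 0.01 the counts were 156, 1, 10, 21, 6 and 5. The unfiltered fit called 491 genes higher and 351 lower over the libraries, against 351 and 172. Without the mitochondrial and the 10 most abundant genes, 31 were called on sums, 23 in both populations and 34 for the difference between populations, and 47 for the latter when a CPM over 1 in at least 4 libraries was asked for. The limma-trend test on mean log2 CPM per fish called 142 genes. Each population fitted alone gave 1 call in GFP+, 73 in GFP- and 1 in both. Without the replicate block 0 genes differed between the populations, against 21 with it, and 764 genes had an unadjusted p under 0.05 with the block. The limma voom fit with the fish as a random block called 424 genes over the libraries, of which 395 were among the 523. As each fish was left out, the calls ranged from 146 to 1017 over the libraries, from 146 to 1539 on sums, from 30 to 473 in GFP+, from 22 to 519 in GFP-, from 13 to 177 in both populations and from 5 to 176 for the difference between populations; where a side kept 1 fish, it was assumed to vary like the others. With the total count of each library downsampled to 1722055, which left the counts on nuclear genes unequal, 527 genes were called over the libraries.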
